A study of Sus scrofa with 32 samples.

Results

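Livers of control pig fetuses at gestational day 50 were compared with livers of control fetuses at gestational day 37, with 4 arrays at each day, so 8 of the 32 arrays of the series. The arrays were chosen by their titles, which name the day, the control group and replicates 1 to 4. All pregnancies, those of the controls included, were in gilts from which 1 uterine horn and ovary had been removed, so that the fetuses grew in a crowded uterus. The labels name no strain, and each day stands for 4 fetuses from 4 gilts. The labels speak of pairs of littermates, a control and a runt, and the 8 arrays of runts of the same days (4 at day 37 and 4 at day 50) are set beside the controls below. The runt arrays enter the filter and the estimate of spread, but not the control means. Total RNA of whole liver was amplified, labelled with Cy3 and hybridised to a 1-colour Agilent pig array.

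In the middle of gestation the fetal liver carries 2 tasks side by side. Hepatoblasts mature into hepatocytes, which secrete albumin, transport proteins, coagulation factors, complement and acute phase proteins and later metabolise drugs and bile acids under the control of nuclear receptors. The organ is also a main site of blood formation, so its RNA comes from red cell precursors, immature white cells, macrophages, endothelium and stroma as well as from hepatocytes. In a sample of whole liver a lower level cannot be divided into fewer cells of a type and less RNA per cell.

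Levels are log2 signals after subtraction of each array's 75th percentile, which is the zero point of the scale. Changes are day 50 minus day 37 on this log2 scale, with the standard error (SE) of the limma fit. A feature is a gene symbol or, where no symbol could be given, a probe, and 28670 features were tested, 1596 of them with a symbol. A feature passed when its Benjamini-Hochberg adjusted p from limma was under 0.05 and its change was at least 2-fold. Genes of hepatocytes were bright on all 8 arrays: APOA1, the main protein of high-density lipoprotein, had a mean of 9.09 at day 37 and 9.11 at day 50, AFP, the fetal plasma protein, 9.42 and 9.54, and TTR, a thyroid hormone carrier, 8.08 and 7.95.

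Between day 37 and day 50, 980 features passed, 3.42% of those tested. Of these, 889 were higher at day 50 (3.1%) and 91 were lower (0.317%). Without a fold threshold 2117 features (7.38%) had an adjusted p under 0.05, of which 1472 were higher (5.13%) and 645 lower (2.25%), and at an unadjusted p under 0.05 there were 6484 (22.6%). The 4 arrays of a day lay wholly apart from the 4 of the other day in 4974 features (17.3%). This was so in 26 of the 29 genes with a symbol that passed, but these were chosen for their difference between the same arrays. The median change of all features was -0.01, and 49.2% of them lay above 0. For features with a symbol the median was -0.06, and 674 of 1596 (42.2%) lay above 0. Only 29 of the features that passed had a symbol, 1.82% of the symbols tested, against 3.51% of the features without one. Counts of passed genes in the lists below stand beside this 1.82%, and no list was tested against it. The calls were most frequent among dim features, and the part of signal strength in them was not tested. Of 5 classes of equal size by level, the dimmest had 358 features higher and 16 lower, with a median change of 0.25, and the brightest had 18 higher and 6 lower, with a median change of -0.12.

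**Figure D1:**
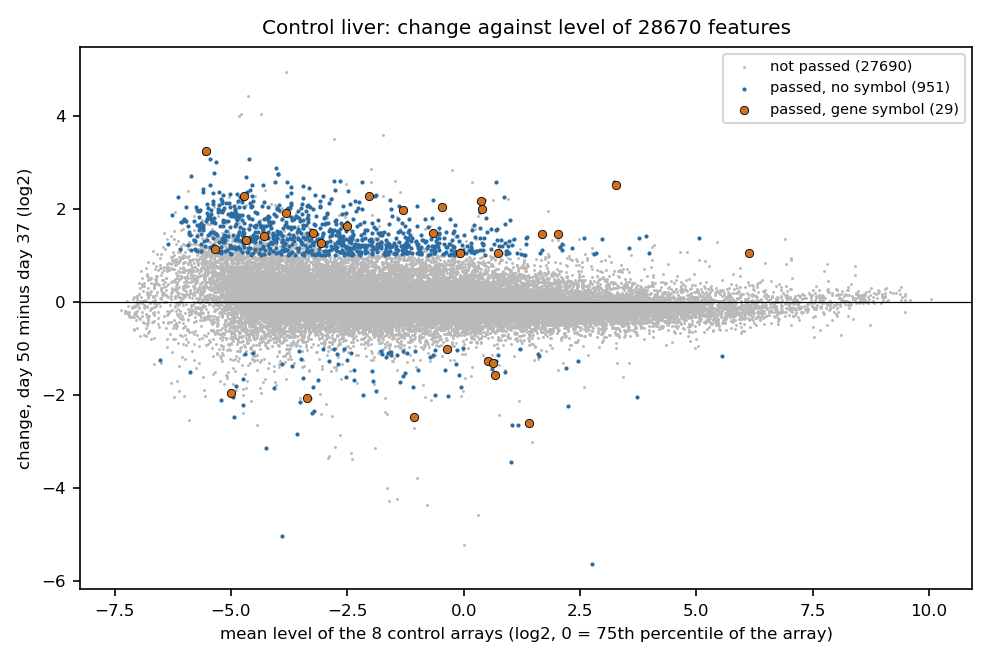
Change from day 37 to day 50 (log2, vertical) against the mean level of the 8 control arrays (log2, horizontal) for each of the 28670 features. Blue points are the 951 features that passed without a symbol, orange points the 29 that passed with one. Most passed points lie above 0 and at levels below 0.

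Day 50 arrays had slightly more signal above background. Between 56.3% and 65.3% of the spots were well above background at day 37 and between 60.6% and 69.4% at day 50. The median level of an array ran from -3.28 to -3.15 at day 37 and from -3.13 to -2.94 at day 50, so the medians of the days did not overlap, and the part of this shift in the excess of higher calls was not tested. No spot was saturated. Arrays of a day correlated across probes at 0.976 to 0.983 at day 37 and at 0.971 to 0.985 at day 50, and arrays of different days at 0.960 to 0.978. All day 37 controls lay at position 1 of their slide and all day 50 controls at position 2, so among the controls day and position cannot be told apart. A single day 50 array lay at position 1, that of runt replicate 1. Over the 889 features that were higher in controls, its median above the mean of the day 37 runts was 1.35, against 1.28 to 1.50 on the other 3 day 50 runt arrays, and over the 91 that were lower it was -1.09, against -1.19 to -1.50. Slides 3 and 6 each held a control of both days. Within slide 3 the 889 features had a median difference of 1.51 and within slide 6 of 1.70, although these arrays also took part in choosing the features.

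The count of calls depended on which arrays were included and on the background correction. Without day 37 replicate 2, 624 features passed, and without each of the other arrays in turn 708 to 1068. With a normexp background correction 80 features passed, 62 higher and 18 lower, so the share of higher calls was 77.5% in place of 90.7%. All 80 were among the 980. Among the 29 genes with a symbol, 6 passed under normexp (ENPEP, IGFBP2, CALCB, KLRK1, PLA2G1B and TLDC2), and of the other genes and probes described below only MPDU1 and probe A_72_P247552 kept their call there. The change of dim genes was much smaller under normexp, 0.49 for NR1I2 and 0.46 for SLC34A1. In the authors' own table of log2 values 760 features passed, and 25 of the 29 genes did. Leaving out each of the 8 arrays in turn, 12 of the 29 passed every time: NR1I2, IGFBP2, SLC34A1, ENPEP, GAST, IFNGR2, PLA2G1B, TLDC2, COL5A3, RLN3, KLRK1 and CALCB.

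Among genes with a symbol that passed, the largest rise was that of NR1I2, which encodes the pregnane X receptor, a nuclear receptor that switches on drug-metabolising enzymes in response to foreign compounds and bile acids. Its levels at day 37 were -7.36, -7.46, -7.12 and -6.68, not well above background on any of the 4 arrays, and at day 50 they were -3.25, -4.84, -3.82 and -3.73, above background on all 4. The groups did not overlap. The fitted change was 3.24 ± 0.41 (SE, adjusted p = 5.08e-05), and against the background limit of the day 37 arrays the level at day 50 was at least 2.08-fold higher. This bound holds for the scale used here, and under normexp the change was 0.49. Of the other liver transcription factors and nuclear receptors, 17 measured in all, NR1H3, the liver X receptor alpha that senses oxysterols, had a change of 0.46 ± 0.13 (adjusted p = 0.0311), under 2-fold. NR1I3, the constitutive androstane receptor and close relative of NR1I2, moved by 1.20 ± 0.40 without passing (adjusted p = 0.0647), from a mean of -2.43 to -1.24. HNF4A and PROX1, which maintain the hepatocyte programme, had changes of 0.49 and 0.45 and adjusted p of 0.225 and 0.0804. The call of NR1H3 was lost without any of day 37 replicates 2, 3 and 4 and day 50 replicates 3 and 4 (adjusted p = 0.0528 to 0.108) and with the mean of its probes in place of the brightest (change 0.26).

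Drug-metabolising enzymes are known targets of NR1I2 and its relatives. Among 38 measured genes of xenobiotic, steroid and retinoid metabolism no gene passed by its brightest probe, and the median change was -0.02. CYP2C49, a cytochrome P450 of the drug-metabolising 2C family, had the largest change, 2.82 ± 0.89, with an adjusted p of 0.0507. Its levels were -1.83, -0.85, -2.04 and -1.90 at day 37 and 0.57, 1.89, 0.79 and 1.42 at day 50. The groups lay apart, but this probe, the brighter of 2, did not pass. The second probe of CYP2C49 passed, at 2.24 ± 0.63 (adjusted p = 0.0275). CYP3A29, a pig relative of the human CYP3A enzymes, was not well above background on any day 37 array and on 2 of 4 day 50 arrays (adjusted p = 0.310). CYP7A1, which catalyses the first step from cholesterol to bile acids, was not well above background on any of the 8 arrays. The list of cholesterol synthesis and bile acid genes had 8 of 9 changes below 0, with a median of -0.38 and no gene passing. Its nearest members were CYP8B1, the sterol 12-alpha hydroxylase, at -1.71 ± 0.57 (adjusted p = 0.0628) and FDFT1, squalene synthase, at -0.46 ± 0.16 (adjusted p = 0.0810). A second FDFT1 probe fell by 0.76 with an adjusted p of 0.00578.

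In the list of plasma proteins and coagulation, 1 of 27 measured genes passed. The plasma proteins APOC4, LBP, SAA3, MBL1 and IGFBP2, described below, also passed and are counted in other lists. The median change of this list was 0.24, and 20 of the 27 lay above 0. KLKB1 encodes plasma prekallikrein, the precursor of a protease of the contact system. Its levels were -1.45, -0.22, 0.31 and -1.02 at day 37 and 1.73, 1.81, 0.45 and 1.60 at day 50. All day 50 arrays were above all day 37 arrays, though day 50 replicate 3 lay close to day 37 replicate 3. The change was 2.00 ± 0.50 (adjusted p = 0.0156), and a second probe of the gene also passed, at 1.62. Without day 37 replicate 4 the adjusted p was 0.0533 and without day 50 replicate 2 it was 0.0511.

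VTN, or vitronectin, an adhesion protein of plasma, rose by 0.89 ± 0.15 (adjusted p = 0.000869). It was at 6.73, 6.70, 6.40 and 6.54 at day 37 and at 7.72, 7.45, 7.58 and 7.20 at day 50, so the groups were well apart while the change stayed under 2-fold. Its second probe had a change of 0.41 (adjusted p = 0.116). ITIH2, a heavy chain of the inter-alpha-trypsin inhibitor family, rose by 0.78 ± 0.17 (adjusted p = 0.00519) on its brightest probe, but the mean of its 3 probes changed by 0.41 (adjusted p = 0.171). ITIH4, another chain of this family, fell by 0.80 with an SE of 0.25 (adjusted p = 0.0472), a call that was lost when any of the 8 arrays was left out (adjusted p = 0.0539 to 0.136) and in the authors' table (adjusted p = 0.130). Its second probe passed, at -1.09 (adjusted p = 0.0235). ALB, serum albumin, was at 7.11, 6.31, 5.70 and 5.73 at day 37 and at 8.13, 7.61, 7.24 and 7.31 at day 50. Its groups did not overlap either, yet its change of 1.36 ± 0.59 did not pass (adjusted p = 0.162). AFP, TF and TTR had changes of 0.12, 0.10 and -0.13, with adjusted p from 0.842 to 0.915.

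APOC4, an apolipoprotein of triglyceride-rich particles, rose from 5.16, 5.99, 5.26 and 5.96 to 6.81, 6.53, 6.47 and 6.79, with a change of 1.05 ± 0.22 (adjusted p = 0.00464). Without day 37 replicate 1 or replicate 3 its change was 0.91 and 0.94, under 2-fold, with adjusted p of 0.0168 and 0.0154. APOC3, an inhibitor of triglyceride clearance, rose by 0.66 ± 0.19 (adjusted p = 0.0346), a call that was lost without any of day 37 replicates 2, 3 and 4 and day 50 replicates 1 and 3 (adjusted p = 0.0607 to 0.144). The other 10 of the 12 measured genes of the list did not reach an adjusted p of 0.05, and the list's median was -0.04.

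**Figure D2:**
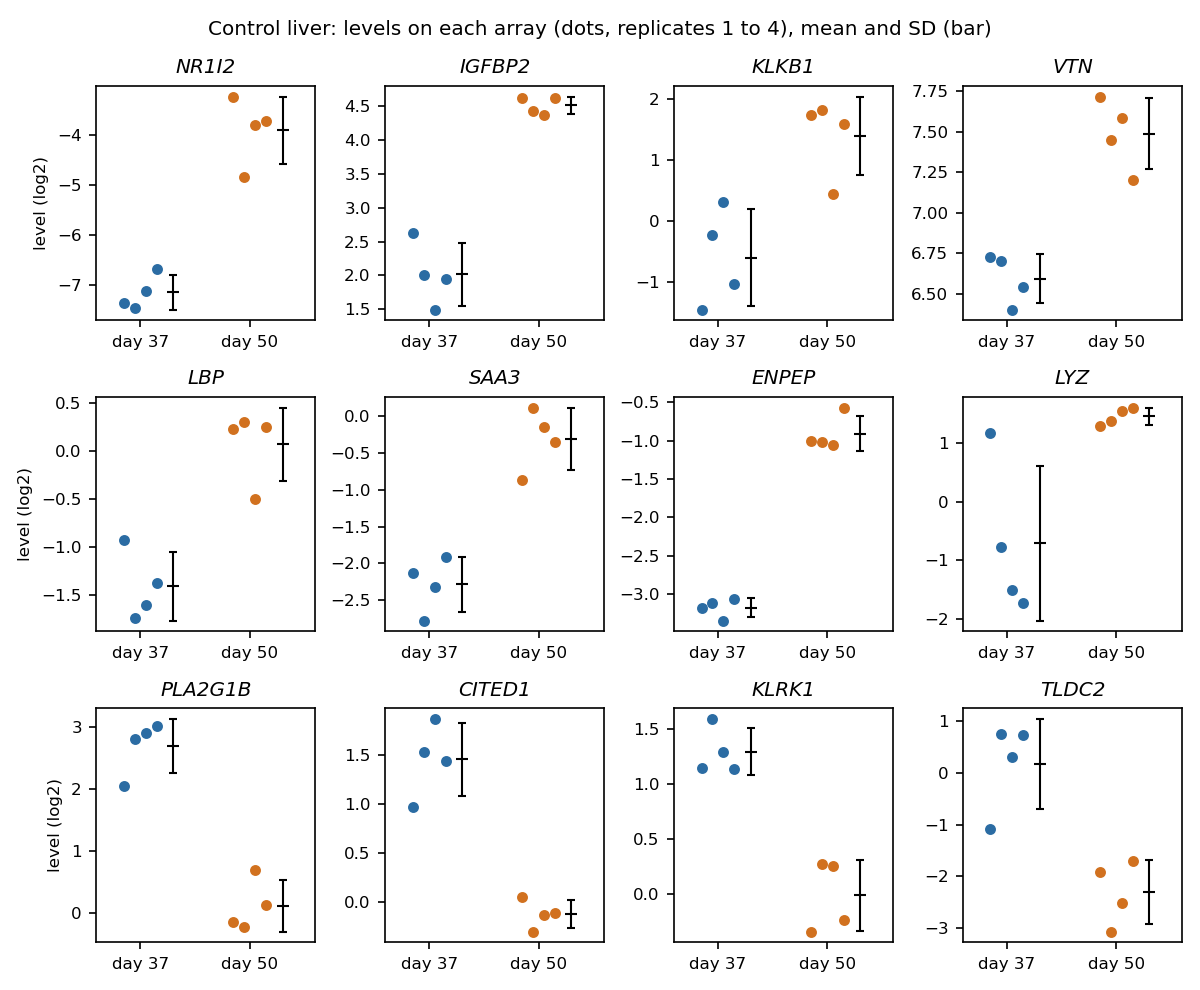
Levels (log2, relative to the 75th percentile of the array) of 12 genes on each control array, day 37 in blue and day 50 in orange, with the mean and SD of the 4 arrays as a bar beside them. The vertical axis differs between panels. In every panel the 4 arrays of day 50 lie on 1 side of the 4 arrays of day 37.

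Of 20 measured genes of acute phase proteins, which the liver releases in inflammation, and of inflammatory signalling, 3 passed, against 1.82% of all symbols. All were higher: the plasma proteins LBP and SAA3 and the chemokine CCL2. ITIH4, which fell by less than 2-fold on its brightest probe, is also in this list, and 16 of the 20 lay above 0. LBP encodes the lipopolysaccharide-binding protein, which hands bacterial endotoxin to its receptor. It was at -0.92, -1.74, -1.60 and -1.37 at day 37 and at 0.23, 0.30, -0.50 and 0.25 at day 50, a change of 1.47 ± 0.38 (adjusted p = 0.0164). Every day 50 array was above every day 37 array, and day 50 replicate 3 stood below the other 3 of its group. The call was lost without day 37 replicate 2 (adjusted p = 0.0603) and with slide as a fixed term (adjusted p = 0.0659).

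SAA3, a serum amyloid A protein, went from -2.13, -2.78, -2.32 and -1.91 to -0.87, 0.12, -0.15 and -0.35. The change was 1.97 ± 0.51 (adjusted p = 0.0184), and its second probe passed too, at 2.16. Its adjusted p was 0.0676 without day 37 replicate 2 and 0.0599 without day 50 replicate 2. CCL2, the chemokine that attracts monocytes, rose by 1.27 ± 0.32 (adjusted p = 0.0147), with a second probe at 1.48, and was at 0.0651 without day 37 replicate 4. The cytokines IL6 and TNF, with changes of 0.12 and -0.08, and the acute phase protein CRP, at 0.23, did not pass (adjusted p = 0.932, 0.929 and 0.724). RELA, a subunit of NF-kappa B, fell by 0.69 with an SE of 0.14 (adjusted p = 0.00430), from between -0.76 and -0.33 to between -1.45 and -0.85.

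Of 22 measured complement genes 12 lay above 0, with a median change of 0.18. MBL1, a mannose-binding lectin that starts the lectin pathway, was the only member to pass, at 1.04 ± 0.30 (adjusted p = 0.0326). It was at 0.44, 0.52, 0.04 and -0.13 at day 37 and at 1.37, 1.29, 0.44 and 1.93 at day 50, so day 50 replicate 3 lay within the day 37 range. The call was lost without any of day 37 replicates 3 and 4 and day 50 replicates 1, 2 and 4 (adjusted p = 0.0733 to 0.130). CFB, factor B of the alternative pathway, rose by 0.82 ± 0.24 (adjusted p = 0.0357), and was above the threshold without day 37 replicate 2 or 3 or day 50 replicate 1 or 4 (adjusted p = 0.0796 to 0.153). C3, the central component, went from 5.50, 4.49, 3.68 and 5.54 to 6.50, 5.22, 5.66 and 6.94, a change of 1.28 ± 0.44 (adjusted p = 0.0715) with overlapping groups. C2 and C4A, of the classical and lectin pathways, had changes of -0.79 and -0.74 (adjusted p = 0.189 and 0.276).

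IGFBP2, a carrier that binds insulin-like growth factors in fetal plasma, rose. It was at 2.63, 2.00, 1.49 and 1.94 at day 37 and at 4.63, 4.43, 4.38 and 4.62 at day 50. The change of 2.50 ± 0.46 (adjusted p = 0.00165) is 5.65-fold, and the groups did not overlap. The ligands did not pass. IGF2, the main fetal growth factor, had a mean of 8.42 ± 0.25 (SD, n = 4) at day 37 and 8.57 ± 0.23 (SD, n = 4) at day 50, and IGF1 a mean of -2.76 and -2.80, with adjusted p of 0.721 and 0.948. GHR, the growth hormone receptor, was dim and changed by -0.24 (adjusted p = 0.700). IGFBP3, the main carrier after birth, had a change of 0.69 ± 0.22 (adjusted p = 0.0533), and its adjusted p was under 0.05 in 10 of the alternative analyses, the authors' table among them (0.0443). In all, 1 of 14 measured genes of this axis passed, with a median change of -0.05.

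Among 12 measured imprinted and fetal growth genes none passed. PEG10, a paternally expressed gene of the placenta and fetus, rose by 0.52 ± 0.15 (adjusted p = 0.0386), from between 6.64 and 6.95 to between 7.06 and 7.56. Its call was lost without any of day 37 replicates 2, 3 and 4 and day 50 replicates 3 and 4 (adjusted p = 0.0752 to 0.130), in the authors' table (adjusted p = 0.0675) and with the mean of its probes. DLK1, a marker of hepatoblasts and fetal growth, had a change of -0.33 ± 0.32 (adjusted p = 0.603), and its second probe was at 0.70 (adjusted p = 0.466). CITED1, a transcriptional co-regulator of fetal tissues in the hepatoblast list, fell. It was at 0.97, 1.53, 1.87 and 1.44 at day 37 and at 0.06, -0.30, -0.12 and -0.11 at day 50, a change of -1.57 ± 0.43 (adjusted p = 0.0234). The groups were apart, but the call was narrow, with an adjusted p of 0.0513 to 0.0642 when day 37 replicate 2, 3 or 4 or day 50 replicate 2, 3 or 4 was left out. EPCAM, a surface protein of hepatoblasts and bile duct cells, rose by 0.87 ± 0.25 (adjusted p = 0.0310), though day 37 replicate 2 lay within the day 50 range. It was above the threshold without day 37 replicate 1, 3 or 4 or day 50 replicate 1, 2 or 4 (adjusted p = 0.0510 to 0.104), and its 2 other probes, at 0.79 and 0.89, were not called. The bile duct and hepatoblast list as a whole had 8 of 15 members above 0.

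Of 26 measured members of the solute transport list 1 passed, SLC34A1, and the median change of the list was -0.04. The transporters SLC4A4 and SLC44A4, which also passed, are not in this list. ENPEP, the aminopeptidase A that cleaves angiotensin, was tight within each day: -3.18, -3.12, -3.35 and -3.07 at day 37 and -1.0, -1.02, -1.05 and -0.57 at day 50. The change was 2.27 ± 0.40 (adjusted p = 0.00122), and the groups lay far apart against their spread. SLC34A1, a sodium-phosphate cotransporter best known from the kidney, went from -6.83, -4.84, -5.04 and -6.74, above background on 1 array, to -3.29, -3.75, -2.98 and -4.34, above background on all 4. Its change was 2.27 ± 0.52 (adjusted p = 0.00872). SLC4A4, a sodium bicarbonate cotransporter, was above background on no array of day 37 and on all 4 of day 50, at least 1.14-fold higher on this scale, with a fitted change of 1.14 ± 0.33 (adjusted p = 0.0334). Its change under normexp was 0.14. It did not pass in the authors' table (adjusted p = 0.169) or without any of day 37 replicates 2, 3 and 4 and day 50 replicates 3 and 4 (adjusted p = 0.0690 to 0.132).

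In the other direction, SLC44A4, a transporter of the choline transporter-like family, fell by 1.01 with an SE of 0.28 (adjusted p = 0.0262). Its groups overlapped, since day 37 replicate 1 was at -0.53 and day 50 replicates 1 and 4 at -0.28 and -0.26. Without any of day 37 replicates 2, 3 and 4 and day 50 replicates 2 and 3 the adjusted p was 0.0641 to 0.115, while its 2 other probes passed with changes of -1.10 and -1.32. GUCY2C, a guanylate cyclase that is the receptor of guanylin, fell by 0.81 with an SE of 0.15 (adjusted p = 0.00165), from between -0.23 and -0.04 to between -1.05 and -0.83. SLC15A2, a peptide transporter, fell by 0.56 with an SE of 0.15 (adjusted p = 0.0188), a call lost without day 37 replicate 3 or day 50 replicate 1 or 4 (adjusted p = 0.0550 to 0.0654). AQP3, a water and glycerol channel, had a change of -1.99 ± 0.63 and an adjusted p of 0.0532.

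Genes of stroma and of secreted signals moved in both directions. MGP, the matrix Gla protein that inhibits calcification, was at -1.76, -0.34, -1.69 and -2.15 at day 37 and at 0.83, 0.79, -0.03 and 0.65 at day 50, a change of 2.05 ± 0.52 (adjusted p = 0.0168). Without day 37 replicate 4 its adjusted p was 0.0650. NTN1, the guidance protein netrin 1, went from -4.02, -3.79, -5.61 and -5.64, above background on 2 arrays, to -3.69, -2.96, -3.31 and -1.45. The change was 1.91 ± 0.51 (adjusted p = 0.0209), the nearest arrays of the 2 days almost met, and the call was lost without day 37 replicate 3 or 4 or day 50 replicate 4 (adjusted p = 0.0698 to 0.0996). COL5A3, a chain of type V collagen, fell from -2.46, -1.46, -3.25 and -2.17 to -4.42, -4.14, -5.11 and -3.95, with a change of -2.07 ± 0.43 (adjusted p = 0.00414). Its partners COL5A1 and COL5A2 changed by -0.06 and -0.52 without passing. These 3 were the only ones of 28 measured stellate cell, fibroblast and matrix genes to pass, and the median of the list was 0.12.

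GAST, the hormone gastrin, rose from -3.72, -3.09, -3.34 and -3.08 to -2.01, -2.47, -1.12 and -1.15 (change 1.62 ± 0.36, adjusted p = 0.00679). It was the only member of 18 measured markers of gut, kidney, gonad, adrenal and placenta to pass, and 15 of the 18 lay below 0. The summed signal of these markers, in units of the 75th percentile signal, was 81.7 to 115 at day 37 and 68.1 to 108 at day 50. BMP7, a growth factor of the bone morphogenetic protein family, rose by 1.33 ± 0.38 (adjusted p = 0.0335), from above background on 1 array to above background on all 4. The call of BMP7 was lost in the authors' table (adjusted p = 0.0657) and without day 37 replicate 1 or 4 or day 50 replicate 2, 3 or 4 (adjusted p = 0.0630 to 0.138). RLN3, the peptide relaxin 3, fell by 1.96 with an SE of 0.43 (adjusted p = 0.00665), from -4.14, -3.63, -3.61 and -4.68 to -5.97, -4.82, -6.16 and -6.94, where 1 array of 4 was above background. CALCB, a calcitonin gene-related peptide, fell from a narrow 1.13, 1.11, 1.12 and 1.27 to 0.29, -0.38, -0.13 and -0.26, a change of -1.28 ± 0.29 (adjusted p = 0.00771).

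Among genes with a symbol that passed, the largest fall was that of PLA2G1B, a secreted phospholipase A2 best known from the pancreas. It was at 2.05, 2.81, 2.91 and 3.03 at day 37 and at -0.15, -0.23, 0.69 and 0.12 at day 50, a change of -2.59 ± 0.49 (6.03-fold, adjusted p = 0.00227). The groups did not overlap. The other 6 of the 7 measured pancreas markers did not pass, with CELA1, an elastase, at -0.30 and CPA1, a carboxypeptidase, at 0.99. CELA1 was above background on 3 of 4 day 37 arrays and 2 of 4 day 50 arrays, and CPA1 on 1 and 2. The summed signal of the 7 markers, in units of the 75th percentile signal, was 6.03 to 9.60 at day 37 and 2.30 to 3.12 at day 50, with PLA2G1B included, and the part of pancreatic tissue in the fall was not tested. TLDC2 fell by 2.48 with an SE of 0.45 (adjusted p = 0.00165). It was at -1.09, 0.75, 0.31 and 0.74 at day 37 and at -1.92, -3.07, -2.52 and -1.70 at day 50, without overlap.

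All 16 measured granulocyte and antimicrobial genes lay above 0, against 49.2% of all features, with a median change of 0.69, the highest of the 34 lists. Only LYZ, the antibacterial enzyme lysozyme, passed. It was at 1.17, -0.77, -1.51 and -1.73 at day 37 and at 1.28, 1.38, 1.55 and 1.60 at day 50. Day 37 replicate 1 thus lay near the day 50 arrays, which were close to each other. The change was 2.17 ± 0.57 (adjusted p = 0.0202), with adjusted p from 0.0531 to 0.0855 when day 37 replicate 2, 3 or 4 or day 50 replicate 4 was left out.

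Some other members of the granulocyte list, such as LTF and PMAP-36, varied widely between fetuses of a day. LTF, the granule protein lactoferrin, was at 4.70, 4.78, 2.40 and 2.24 at day 37 and at 4.91, 4.74, 2.47 and 4.83 at day 50 (adjusted p = 0.531). The antimicrobial peptide gene PMAP-36 was at 3.19 in day 50 replicate 1 and between -6.96 and -4.72 on the other 7 arrays. The summed signal of the list was 207 to 422 at day 37 and 201 to 723 at day 50, so the days overlapped. The list's median was above 0 in every alternative, from 0.33 to 1.1.

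Among 17 measured lymphocyte and natural killer cell genes, VPREB1 rose and KLRK1 fell. VPREB1, part of the surrogate light chain of pre-B cells, was at -3.34, -3.72, -3.47 and -5.36 and then at -2.39, -2.21, -3.03 and -2.40, a change of 1.47 ± 0.46 (adjusted p = 0.0476). Its call was lost in the authors' table (adjusted p = 0.0862) and without day 37 replicate 2 or 4 or any day 50 replicate (adjusted p = 0.0519 to 0.207). KLRK1, which encodes the activating receptor NKG2D, was at 1.15, 1.59, 1.29 and 1.13 and then at -0.35, 0.27, 0.25 and -0.24, a change of -1.31 ± 0.27 (adjusted p = 0.00442). The defining T cell genes CD3E and CD2 had changes of 0.29 and -0.06 (adjusted p = 0.770 and 0.930). Many genes of this list were dim: of the 17, only 5 were above background on all 8 arrays and 4 on none of them. IFNGR2, a chain of the interferon gamma receptor, rose by 1.04 ± 0.24 (adjusted p = 0.00771), from between -0.73 and -0.38 to between 0.29 and 0.56, and IRF3, a transcription factor of the interferon response, fell by 0.64 with an SE of 0.16 (adjusted p = 0.0155). IRF3 was above the threshold without day 37 replicate 2 or day 50 replicate 4 (adjusted p = 0.0691 and 0.0587).

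Of 36 measured macrophage, monocyte and class II antigen genes only AIF1, a macrophage protein, had an adjusted p under 0.05, at 0.65 ± 0.15 (0.00999, and 0.0536 without day 37 replicate 2), and its second probe was at 0.52 (adjusted p = 0.187). CD163, the haemoglobin scavenger receptor of macrophages, changed by -0.05 (adjusted p = 0.943) on its brightest probe and by -0.57 and -0.35 on 2 others (adjusted p = 0.0506 and 0.268). CXCL16, a chemokine of macrophages and endothelium, rose by 0.92 ± 0.20 (adjusted p = 0.00602). Of 7 measured erythroid genes none passed. HBE1, embryonic globin, had a mean of 4.50 at day 37 and 4.42 at day 50, TFRC, the transferrin receptor, changed by -0.51 ± 0.29 (adjusted p = 0.308) and EPO, the hormone of red cell formation, by -1.14 ± 0.48 (adjusted p = 0.151). In the endothelial list ENPEP passed, and ENG, an endothelial co-receptor, rose by 0.48 ± 0.15 (adjusted p = 0.0466, lost without any array other than day 37 replicate 1, at 0.0501 to 0.178). PECAM1, the endothelial adhesion protein, changed by 0.21 (adjusted p = 0.515).

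Of 12 measured genes of glycolysis and lactate metabolism 9 lay below 0, with a median change of -0.40, the lowest of the 34 lists. The median was -0.06 for all symbols and -0.12 for the brightest class of features. GPI, glucose-6-phosphate isomerase, fell by 0.68 with an SE of 0.18 (adjusted p = 0.0213). TKT, transketolase, an enzyme of the pentose phosphate pathway that is counted in this list, fell by 0.66 with an SE of 0.18 (adjusted p = 0.0218). LDHB, the heart-type subunit of lactate dehydrogenase, fell by 0.49 with an SE of 0.15 (adjusted p = 0.0477). LDHB was at 6.51, 6.76, 6.68 and 6.82 at day 37 and at 6.21, 6.10, 6.18 and 6.34 at day 50, a small step without overlap. Its other probes were at -0.46 (adjusted p = 0.116) and -0.59 (adjusted p = 0.0364). No member reached 2-fold. GPI lost its call without day 37 replicate 2 or 4 or day 50 replicate 1 or 4 (adjusted p = 0.0510 to 0.0789), TKT without day 37 replicate 2 or 4 or day 50 replicate 3 or 4 (0.0567 to 0.103), and LDHB without any array other than day 37 replicate 1 (0.0635 to 0.126) and in the authors' table (0.0895). The median of this list stayed below 0 in every alternative, from -0.49 to -0.22.

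FBP1, the gluconeogenic fructose-1,6-bisphosphatase, went the other way, from 4.82, 5.16, 4.88 and 4.69 to 5.73, 5.72, 5.32 and 5.88, a change of 0.77 ± 0.22 (adjusted p = 0.0280). It was above the threshold without day 37 replicate 1, 3 or 4 or day 50 replicate 1, 2 or 4 (adjusted p = 0.0515 to 0.0886). In the list of the respiratory chain and mitochondria 22 of 28 members lay below 0, with a median of -0.15, against -0.06 for all symbols and -0.12 for the brightest class of features. IDH3A, a subunit of the isocitrate dehydrogenase of the citric acid cycle, was its only member with an adjusted p under 0.05, at -0.68 ± 0.18 (adjusted p = 0.0205, and 0.0556 to 0.0809 without day 37 replicate 2 or 4 or day 50 replicate 2). SIRT3, a mitochondrial deacetylase, fell by 0.70 with an SE of 0.16 (adjusted p = 0.00713). NAGS, which makes the activator of the first enzyme of the urea cycle, fell by 0.65 with an SE of 0.14 (adjusted p = 0.00498), from between 1.29 and 1.54 to between 0.63 and 1.11, and MUT, methylmalonyl-CoA mutase, by 0.62 with an SE of 0.14 (adjusted p = 0.00656). A second NAGS probe was at -0.99 (adjusted p = 0.000640), also under 2-fold. None of the 11 measured genes of the urea cycle and amino acid breakdown passed.

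Of 18 measured cell cycle genes 15 lay below 0, with a median of -0.27. The median was -0.06 for all symbols, of which 42.2% lay above 0, and -0.12 for the brightest class of features. CCND3, cyclin D3, fell by 0.80 with an SE of 0.19 (adjusted p = 0.0106), from a mean of 1.81 to 1.01, and CCND2, cyclin D2, had a change of -0.81 ± 0.26 with an adjusted p of 0.0523. The mitotic genes CDK1, CCNB1 and BIRC5 had changes of -0.18, -0.43 and -0.05, with adjusted p from 0.270 to 0.934. Of 30 measured genes of ribosomal proteins and translation 20 lay above 0, and only EIF4A1, a helicase of translation initiation, had an adjusted p under 0.05, at -0.49 ± 0.15 (adjusted p = 0.0400). That call was lost without any array other than day 37 replicate 1 (adjusted p = 0.0624 to 0.139) and in the authors' table (adjusted p = 0.118). All 3 probes of EIF4A1 had changes between -0.57 and -0.49.

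**Figure D3:**
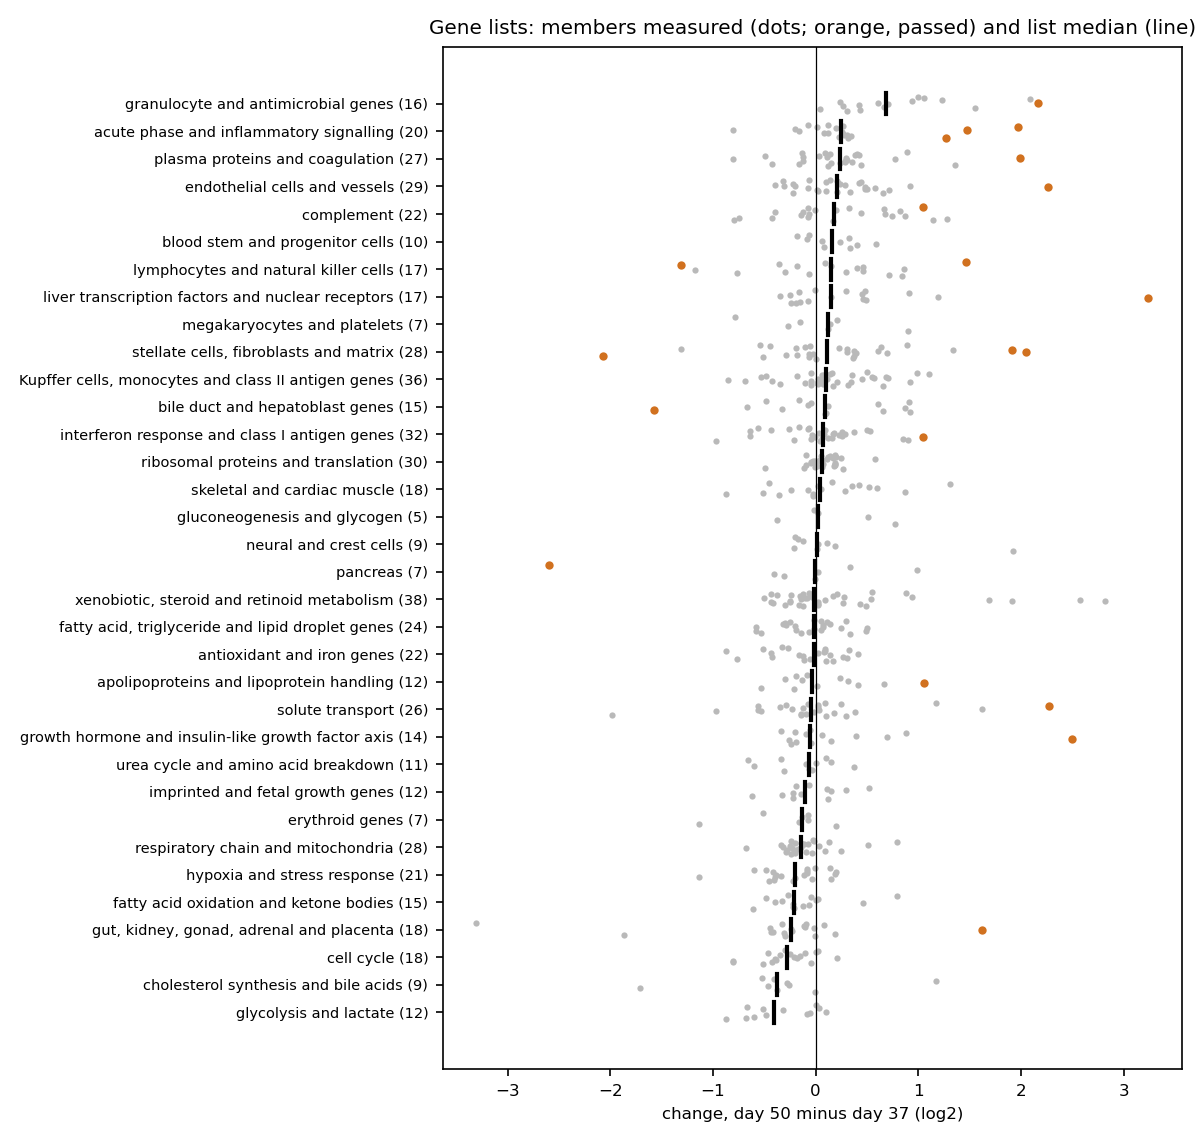
Changes from day 37 to day 50 (log2, horizontal) of the measured members of 34 gene lists, with the number measured in brackets. Grey dots did not pass, orange dots passed, and black lines are list medians, which run from -0.40 for glycolysis to 0.69 for granulocyte genes.

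Some calls had no list. Of the 101 symbols with an adjusted p under 0.05 (6.33% of those tested), 72 changed by less than 2-fold, and of these 53 fell and 19 rose. The falls with the smallest p included MPDU1, a protein needed for glycosylation with dolichol-linked sugars, at -0.62 ± 0.11 (adjusted p = 0.00141), OAZ1, the antizyme that limits polyamine synthesis, at -0.48 ± 0.11 (adjusted p = 0.00660), SNRPB2, a spliceosome protein, at -0.56 ± 0.13 (adjusted p = 0.00777), DNASE2, the lysosomal DNase, at -0.62 ± 0.14 (adjusted p = 0.00798), and SLC35A4 at -0.87 ± 0.20 (adjusted p = 0.00946), whose second probe was at -0.30 (adjusted p = 0.247). The rises with the smallest p, beside those given above, were PALMD at 0.95, ASPA, aspartoacylase, at 0.98, TEAD1, a transcription factor of the Hippo pathway, at 0.53, MAP1LC3A, an autophagy protein, at 0.56, TNFSF13, a cytokine for B cells, at 0.76 and MAPKAPK3, a stress kinase, at 0.85, with adjusted p from 0.0101 to 0.0261. Single arrays ended the calls of PALMD (without day 37 replicate 4, 0.0671), MAP1LC3A (day 50 replicate 3, 0.0619), TEAD1 (day 37 replicate 2 and day 50 replicate 4, up to 0.0763), TNFSF13 (day 37 replicates 2 and 3 and day 50 replicate 4, up to 0.118) and MAPKAPK3 (day 37 replicates 2 and 3 and day 50 replicates 1 and 4, up to 0.101). ASPA, TNFSF13 and MAPKAPK3 did not hold in the authors' table (adjusted p = 0.0972, 0.0981 and 0.0525). ASPA was dim, above background on 1 of 4 day 37 arrays and 3 of 4 day 50 arrays, and its change under normexp was 0.18.

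GNA14, a G protein alpha subunit, rose by 1.40 ± 0.40 (adjusted p = 0.0286), with levels of -3.84, -4.64, -6.72 and -4.81 and then -3.60, -3.13, -3.35 and -4.31. It was above background on 2 of 4 day 37 arrays and on all 4 of day 50, and its change under normexp was 0.27. The groups overlapped, and without day 37 replicate 3 the change was 0.83 (adjusted p = 0.121). The call was also lost without day 37 replicate 4 or day 50 replicate 1, 2 or 3 (adjusted p = 0.0527 to 0.0951) and in the authors' table (adjusted p = 0.0640), and its second probe was at 0.95 (adjusted p = 0.0191), under 2-fold. LOC396866 and LOC396867, 2 genes with no name in the annotation, each had a change of 1.45, with adjusted p of 0.0450 and 0.0377. Their levels ran in parallel over the arrays, 1.85, 1.65, 0.06 and 0.28 against 2.16, 1.99, 0.44 and 0.63 at day 37, and whether their probes read the same transcripts was not tested. A second LOC396866 probe was not called (adjusted p = 0.104). Both calls were lost without day 37 replicate 3 or 4 or day 50 replicate 1, 2 or 4 (adjusted p = 0.0694 to 0.147).

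Features without a symbol made up 951 of the 980. Among these the 2 largest falls were those of probe A_72_P247552, designed on an expressed sequence tag, from 5.65, 5.57, 5.31 and 5.76 to 0.53, -0.74, 1.12 and -1.19 (change -5.64 ± 1.03, adjusted p = 0.00168), and of probe A_72_P046236, designed on an Ensembl transcript. The latter went from -2.03, -0.93, -1.82 and -0.82 to -7.33, -5.78, -6.54 and -6.06, not above background on any day 50 array (adjusted p = 7.46e-08). Against the background limit of those arrays it was at least 13.3-fold lower on this scale. Its change under normexp was -1.23 (adjusted p = 0.173). Among them the 2 largest rises were those of probes A_72_P265877 and A_72_P045426, above background on no array of day 37 and all 4 of day 50, on this scale at least 1.97-fold and at least 2.06-fold higher (adjusted p = 2.49e-05 and 0.00114). Under normexp their changes were 0.50 and 0.48 and were not called, so these bounds depend on the background correction. Of the 889 higher features 178 were above background on no day 37 array, and 449 were above it on all 4. Probes designed on consensus sequences of expressed tags were called most often, 484 of 9134 (5.30%), 463 of them higher, and probes on Ensembl transcripts were called at 1.14%, with 27 higher and 21 lower.

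The change in runts is the difference of the runt means, although the runt arrays shared in the filter and the spread behind the control calls. Of the 889 features higher in controls 884 were above 0 in runts, against 48.6% of all features, and 672 (75.6%) passed there in the same direction, against 4.99% of all features. The median change of the 889 was 1.37 in both fetus types. Of the 91 lower features 90 were below 0 in runts, against 51.4% of all, and 58 (63.7%) passed there, against 0.844%. Their median change was -1.46 in controls and -1.20 in runts. In a check chosen after seeing the data, features were called from the 8 control arrays alone, with runts only in the filter on background. There 758 of 763 higher features were above 0 in runts and 92 of 96 lower features were below 0, and 575 and 54 of them passed there. The runts are littermates of controls and lay at the same slide positions apart from 1 array, so they are separate fetuses but not separate pregnancies. In runts alone 1672 features passed (5.83%), 1430 higher and 242 lower, so 85.5% of the calls were higher. Under normexp 527 were higher and 675 lower in runts (43.8% higher). The median runt change of all features was 0.34 under normexp, against -0.02 in the main fit. The part of this shift in the direction of the runt calls was not tested.

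Of the 29 genes with a symbol, 27 had the same sign in runts and 15 also passed there. IGFBP2 changed by 2.93 ± 0.46 in runts (adjusted p = 0.000194), PLA2G1B by -2.13 ± 0.49 (adjusted p = 0.00497), CITED1 by -2.50 ± 0.43 (adjusted p = 0.000405) and VPREB1 by 1.97 ± 0.46 (adjusted p = 0.00497). KLRK1 fell by 2.16 with an SE of 0.27 (adjusted p = 2.44e-05). VTN rose by 1.04 ± 0.15 (adjusted p = 9.79e-05), so these 6 genes moved the same way in both sets of fetuses.

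**Figure D4:**
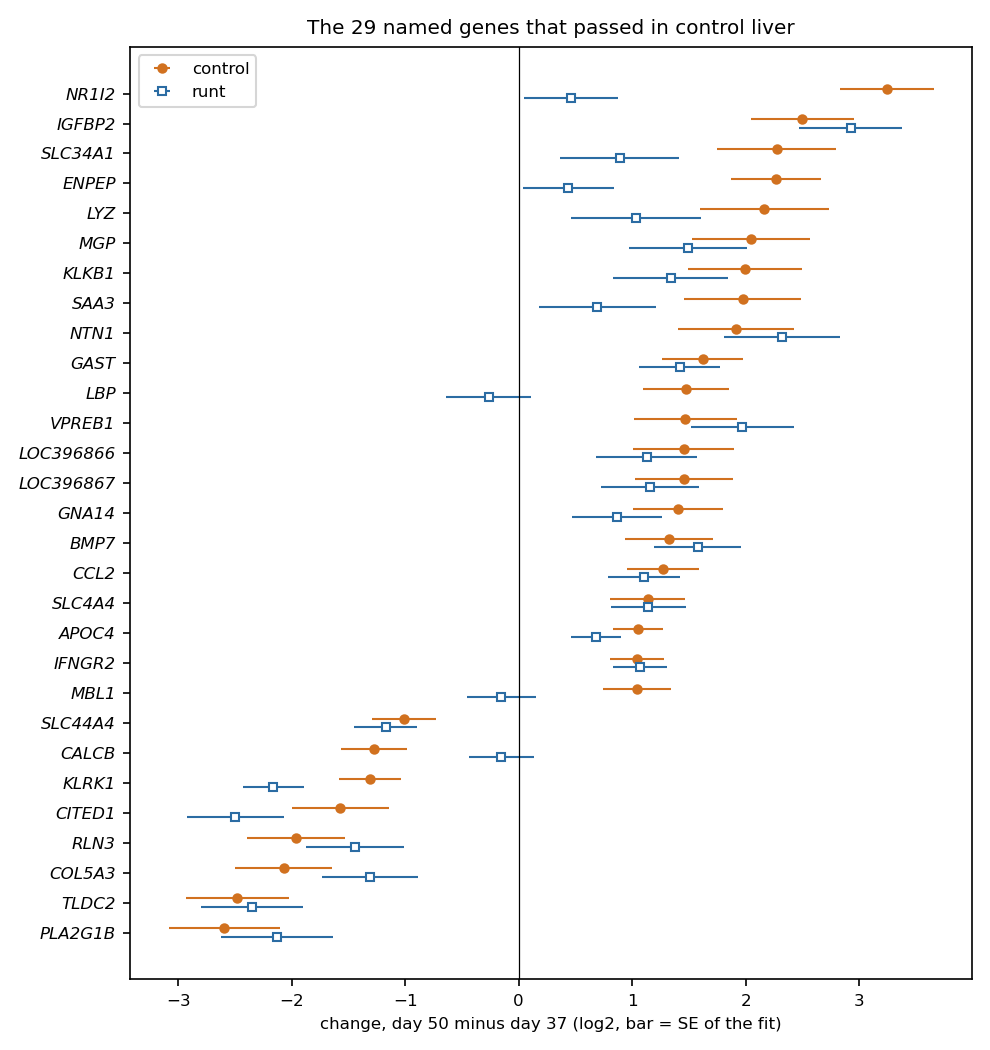
Change from day 37 to day 50 (log2, horizontal, bars are the SE of the fit) of the 29 genes with a symbol that passed in controls, in controls (filled circles) and in runts (open squares). NR1I2, ENPEP, LBP, MBL1 and CALCB lie between -0.27 and 0.46 in runts.

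The difference between the control change and the runt change was tested for every feature, and 1 feature was called (0.00349% of those tested), with 507 (1.77%) at an unadjusted p under 0.05. It was probe A_72_P255752, designed on an expressed sequence tag, which changed by 0.94 ± 0.29 in controls and by -1.78 ± 0.29 in runts, a fitted difference of 2.73 ± 0.42 (adjusted p = 0.0153). It was not well above background on any of the 8 runt arrays or on 2 of the 4 day 37 control arrays, so the fitted runt change and difference are no measured sizes. Its levels were between -5.35 and -4.61 in day 37 controls, between -4.47 and -3.68 in day 50 controls, between -5.61 and -4.15 in day 37 runts and between -7.18 and -6.44 in day 50 runts. This single call was absent under normexp and with slide as a random block. Among genes with a symbol the smallest p was that of NR1I2, whose fitted change was 2.78 ± 0.59 smaller in runts (unadjusted p = 6.24e-05, adjusted p = 0.596). In runts NR1I2 was at -6.67, -6.84, -6.32 and -6.75 at day 37 and at -6.10, -7.07, -6.07 and -5.51 at day 50, so all 4 day 50 runts lay below all 4 day 50 controls. None of the 8 runt arrays and none of the day 37 control arrays was well above background for NR1I2, so the size of this difference was not measured.

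The next genes by that test were LBP, ENPEP, CYSLTR2 and TMEM87A, with unadjusted p from 0.00292 to 0.00522 and adjusted p near 1, so none of these differences held after correction. LBP was at -1.60, -2.73, -1.61 and -2.45 in day 37 runts and at -3.01, -2.90, -1.73 and -1.82 in day 50 runts, a change of -0.27 ± 0.38. ENPEP changed by 0.44 ± 0.40 in runts, and MBL1 by -0.15 ± 0.30 (unadjusted p of the difference 0.00915). CYSLTR2, a leukotriene receptor, changed by 0.00 in controls and -0.79 in runts, and TMEM87A by -0.41 and 0.14. The control change of TMEM87A had an adjusted p of 0.0483, lost without any array other than day 50 replicate 2 (0.0542 to 0.128) and in the authors' table (0.186).

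The control fetuses of days 70 and 110 show where these levels went later, as descriptions. NR1I2 had a mean of -3.91 ± 0.67 (SD, n = 4) at day 50, 0.06 ± 1.01 at day 70 and 3.33 ± 0.08 at day 110. IGFBP2 went on from 4.52 ± 0.13 to 6.83 ± 0.40 and 7.97 ± 0.28, and LBP from 0.07 ± 0.38 to 1.01 ± 0.40 and 1.46 ± 0.39. CITED1 went down from -0.12 ± 0.15 to -2.41 ± 0.35 and -5.38 ± 0.39. ENPEP did not go on in one direction, and its mean was -0.91 ± 0.23 at day 50, -0.21 ± 0.40 at day 70 and -1.89 ± 0.54 at day 110. LYZ was at 1.45 ± 0.15, 0.98 ± 0.60 and -0.56 ± 0.32. Over the 889 higher features the median level was -3.84 at day 37, -2.37 at day 50, -2.95 at day 70 and -2.44 at day 110. These features were chosen for their difference between the first pair of days, so no order of the days is read from them.

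**Figure D5:**
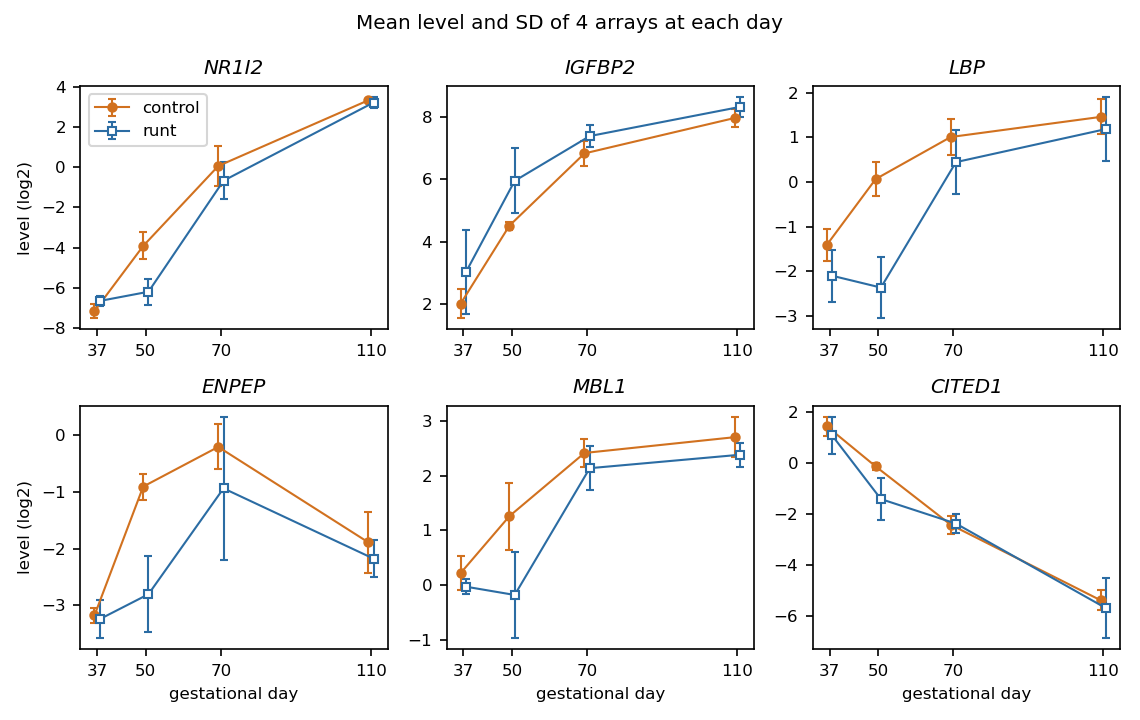
Mean level (log2) of 6 genes at gestational days 37, 50, 70 and 110 in controls (filled circles) and runts (open squares), with the SD of 4 arrays as bars. Each day comes from other pregnancies, and the lines only join the means. The means of NR1I2, LBP, ENPEP, MBL1 and CITED1 are lower in runts than in controls at day 50, and that of IGFBP2 is higher. At day 37 the means of LBP, ENPEP, MBL1 and CITED1 are also lower in runts.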

How the data were processed

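The authors' deposited files hold spot intensity values of 1-colour arrays, read by Feature Extraction 10.7.3.1 per the file headers, and a deposited table of log2 values, for which the submitters' processing notes name Partek. In that table all columns share a maximum of 18.47, and it served as an alternative. Here processed signals were divided by their 75th percentile within each array and taken to log2. Probes well above background on at least 3 of 4 arrays of any of the 8 groups were tested, and the brightest probe stood for a gene. limma 3.58.1 in R 4.3.3 fitted 8 group means over 32 arrays (24 residual degrees of freedom), with Benjamini-Hochberg adjustment over all features, and was tested on simulated data. Of 43603 probes 2683 matched a symbol through RefSeq accessions (Sscrofa11.1), 1904 symbols in all. Normexp (offset 50) used median spot and background signals.

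The genes described, the 34 gene lists and the tests were chosen with earlier results of these data known. Named were the genes that passed (at most 15 per direction), the 10 per direction with the smallest p under 2-fold, a panel of liver genes, up to 4 members of each list, the 5 genes with the smallest p for control against runt, and 2 unnamed probes per direction. BMP7, SLC4A4, other members of the lists such as IL6, TNF, CRP, CD3E, CD2, COL5A1 and COL5A2, and further genes used as markers were named after their values were seen. Each day's 4 arrays came from 4 distinct gilts, per the labels' protocols, and the number of arrays limits the precision.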

Additional observations from a re-analysis of the deposited data

Results flagged for a closer look

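Over 73 called genes and probes, 146 sets of 4 control arrays were examined for an array far from the other 3, and 8 were found. Chance alone gives about 1 in 20 such sets. KLKB1 was at 0.45 in day 50 replicate 3, against 1.60 to 1.81 on the others, and LBP was at -0.50 in the same fetus, against 0.23 to 0.30. ENPEP was at -0.57 in day 50 replicate 4, against -1.05 to -1.0, and probe A_72_P265877 at -4.44 in that fetus, against -3.89 to -3.79. At day 37, CALCB was at 1.27 in replicate 4, against 1.11 to 1.13, and DNASE2 at -0.14 in replicate 2, against 0.15 to 0.20. SLC44A4 was at -0.53 in day 37 replicate 1, against 0.36 to 0.43, and SIRT3 at -0.60 in the same fetus, against -0.33 to -0.29.

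The change of probe A_72_P255752 had a fitted difference between controls and runts of 2.73 (limma, adjusted p = 0.0153), the only such call among the 28670 features. The probe was not well above background on any of the 8 runt arrays, so this is no measured size.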

How the results depend on the processing

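Normexp gave 80 features (62 higher, 18 lower), a filter on all 8 arrays 528 (456 higher), and slides 4 to 9 alone 160 (136 higher, 24 lower). The only day 37 control array on slides 1 to 3 was replicate 4, so no count of calls is given for these slides alone. Without a fold threshold there were 2117 (1472 higher, 645 lower), as the construction of that alternative implies. Quantile normalization gave 137 lower features, and 82.3% of its calls were higher, as were 82.1% in the authors' table. Slide subsets hold fewer arrays, and for the other settings the cause was not tested. Leaving out each array in turn gave 624 to 1068 passed features, 560 to 987 higher and 64 to 134 lower, with the lowest total without day 37 replicate 2. The difference between controls and runts had 0 calls by limma under normexp, with slide as a random block and with the replicate block, with 1578, 618 and 818 features at an unadjusted p under 0.05. It had 1 call with a block for the littermate number within each day, an alternative added after seeing the data, as the replicate block for runts and for this difference was.

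Scaling by probes above background on all 32 arrays moved the median of all features to 0.09, against -0.01. Of the 73 called genes and probes, 60 kept their call in the authors' table, 72 with slide as a random block and 8 under normexp. Same-numbered day 37 and day 50 controls correlated at 0.047, 0.159, -0.012 and 0.322 in their deviations from the group means, so the numbers were not taken as pairs. With the replicate block 1094 features passed, 979 higher and 115 lower, and 979 of the 980 were among them. Dim features near background limit the precision.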
